A study of Mus musculus with 6 samples.

Results

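Thrombomodulin, its partner receptors and the activators of plasminogen were examined in M0505 and STOSE cells. Of the 20405 genes on the array, 10 were chosen by name for their place in the pathway: *Thbd*, *Procr*, *F3*, *Tfpi*, *Plat*, *Plau*, *Plaur*, *F2r*, *F2rl1* and *Anxa2*. Each was read by exactly 1 probe set, so the choice of the brightest probe set per gene, which uses the mean over all arrays and not the difference between the lines, had nothing to select among these 10. All 10 were chosen with earlier results of these data known, so counts over them are a description. *Thbd* had been singled out earlier for the size of its fall in these same arrays, and its values are therefore a description and carry no test. M0505 is an epithelial culture from the ovarian surface of FVB/N mice and was compared at early passage. STOSE is the line that arose from it by spontaneous transformation over long passage, with no engineered allele. Both were grown in the same α-Minimal Essential Medium with fetal calf serum, EGF, an ITSS supplement and antibiotics, and neither was treated. Each line was measured on 3 arrays that the labels call biological replicates. Each line is 1 derivation, karyotyping in the study found aneuploidy in both, and the labels do not say what separates the replicates, so the p-values measure the spread between these arrays only.

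Tissue factor, the product of *F3*, starts coagulation by binding factor VII, and tissue factor pathway inhibitor, the product of *Tfpi*, blocks that complex. Thrombin formed downstream signals to cells by cleaving protease-activated receptors, but when it is held by thrombomodulin it instead activates protein C, which the receptor encoded by *Procr* presents to it. Clots are dissolved by plasmin, which tissue-type (*Plat*) and urokinase-type (*Plau*) activators cut from plasminogen, the latter at the surface receptor encoded by *Plaur*. Thrombomodulin and the protein C receptor are best known from endothelium, and thrombomodulin is also a known product of mesothelium, to which the ovarian surface is related.

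The values were log2 values from robust multi-array average (RMA) normalization, so a difference of 1 between the means of the lines is a fold change of 2. Genes were tested with limma and Benjamini-Hochberg adjustment over all 20405, and a call needed both an adjusted p below 0.05 and a difference of 2-fold or more. By this rule 12.5% of all genes were called, 7.59% lower and 4.90% higher in STOSE cells. Of the calls, 39.2% were higher in STOSE cells, against 55.5% when each array was centred on its median, because the median of the STOSE arrays lay below that of the M0505 arrays by a mean of −0.20 on the log2 scale. Centring therefore raised every difference by that amount, although the median difference of all genes was already 0.08 before it. The 95th percentile of the 1134 probe sets of olfactory receptor genes, 4.72, was taken as a rough guide to background. Probe sets differ in brightness, so levels are compared between lines and not between genes. All 13 surface epithelium and mesothelium markers on the array lay above this guide in both lines, 5 of them called lower in STOSE cells. *Krt19* (11.17 to 5.61) and *Krt8* (11.37 to 6.82) fell most by far. *Krt7*, *Bnc1* and *Gata4*, also called, fell by 2.04- to 2.60-fold. The other 8 were not called, and the median log2 difference of the 13 was −0.63.

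Of the 9 genes other than *Thbd*, 2 were lower (*Plau* and *Procr*) and 1 was higher (*Tfpi*) in STOSE cells past the threshold. The other 6 differed by less than 2-fold. At the adjusted p alone, which 56.5% of all genes passed (24.8% lower and 31.6% higher), 5 were lower, 3 were higher and *F3* did not pass. *F2rl1*, 1 of the 3 higher, lay under the background guide on every array. The arrays of the lines did not overlap for 8 of these 9, *F2rl1* included, against 64.6% of all genes. Their median log2 difference was −0.44, against 0.08 for all genes. The counts and this median describe genes chosen with earlier results known, and they are no test of the pathway.

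**Figure D1:**
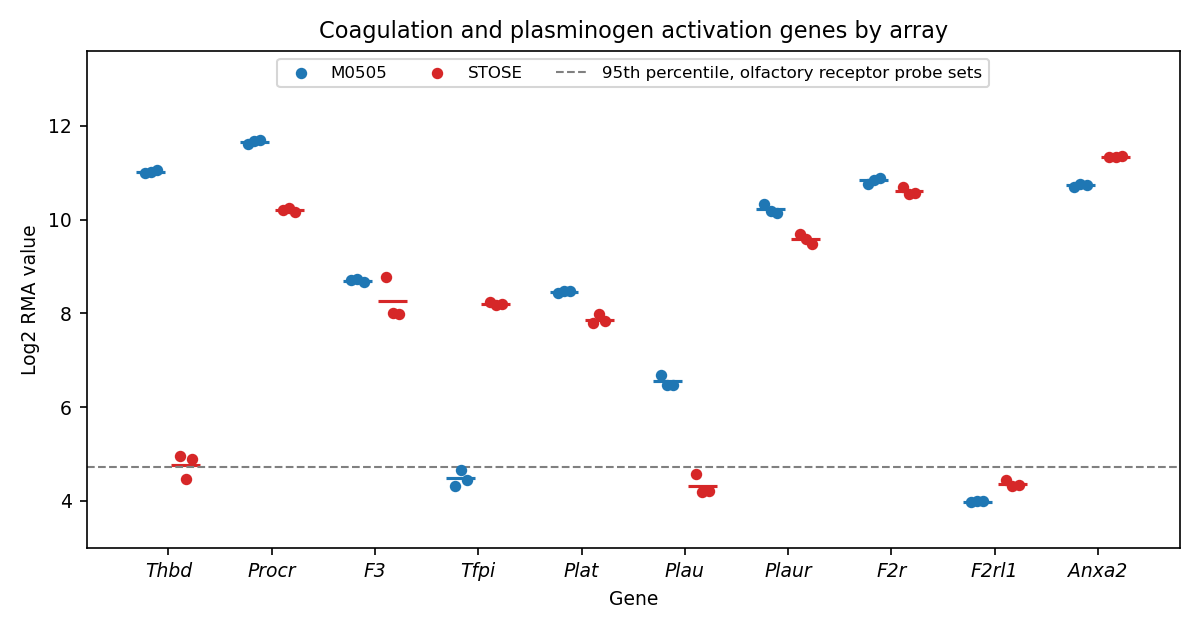
Log2 RMA value (vertical axis) of each of the 10 genes (horizontal axis) on the 3 M0505 arrays (blue) and the 3 STOSE arrays (red), with a bar at the mean of each line and a dashed line at the background guide of 4.72. *Thbd* and *Plau* drop to the guide in STOSE cells, *Tfpi* starts at it in M0505 cells, and 1 STOSE array of *F3* lies just above the M0505 arrays.

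*Thbd* encodes thrombomodulin, the thrombin-binding cofactor that turns the enzyme towards protein C. Its log2 values on the M0505 arrays were 10.997, 11.01 and 11.06, and on the STOSE arrays 4.95, 4.47 and 4.89. The M0505 arrays differed by little, and the STOSE arrays straddled the background guide, with 1 of the 3 below it. The means were 11.02 ± 0.03 (SD, n = 3) and 4.77 ± 0.26 (SD, n = 3), a fall of 76.1-fold that ranked 9 among the 1548 genes called lower. With values under the guide raised to it the fall was 71.9-fold. In bulk RNA, fewer cells with the transcript and less transcript per cell cannot be told apart.

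*Procr*, whose product presents protein C to the thrombin and thrombomodulin complex, also fell, but it stayed well above the background guide. Its log2 values were 11.61, 11.67 and 11.70 in M0505 cells and 10.20, 10.24 and 10.15 in STOSE cells. The lines were apart by far more than the spread within either. The difference was −1.46 (standard error 0.06, limma adjusted p = 2.80e-07), a linear fold change of −2.76, and it ranked 845 among the genes called lower.

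Most endothelial markers were dim in both lines and did not differ by 2-fold. Of 12 such genes, 9 had a mean above the guide in M0505 cells and 8 in STOSE cells, most of them by little: *Cdh5* read 4.81 and 5.01, *Tek* 4.76 and 4.78, *Cldn5* 5.63 and 5.71 and *Egfl7* 6.31 and 5.93. *Pecam1* (4.69 and 4.33) and *Emcn* (2.99 and 3.05) lay under the guide in both lines. The 2 genes called were *Kdr*, the main VEGF receptor gene, which fell from 9.58 to 4.41, and *Esam*, which fell from 8.12 to 5.35. The summed linear signal of the 12 was 1334 to 1441 over the M0505 arrays and 378 to 409 over the STOSE arrays. Without *Kdr* and *Esam*, left out after their values were seen, the other 10 summed to 324 to 341 and 316 to 350, and the median log2 difference of the 12 was 0.04. The part of *Kdr* and *Esam* signal in the fall of *Thbd* and *Procr* was not tested. Of 15 leukocyte and macrophage genes, 11 were under the guide in both lines. The summed signal of all 15 was 982 to 1239 and 402 to 454. *Cd68*, the 1 gene called, fell from 9.78 to 6.96, and the median log2 difference of the 15 was 0.13. None of 6 megakaryocyte and platelet genes was called, with sums of 211 to 220 and 212 to 222. Granulosa genes summed to 1270 to 1439 and 463 to 520. *Inha*, the 1 of 7 called, fell from 9.61 to 5.68, and the median log2 difference of the 7 was −0.13. Fibroblast genes summed to 5838 to 6266 and 5722 to 6054, with *Thy1* called higher and *Col1a2* lower among 8.

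Genes whose arrays followed those of *Thbd* most closely were found by the root mean square difference over the 6 arrays, with each gene centred on its own mean. Among the nearest were *Uchl1* (0.09), *Gpr126* (0.18), *4921521F21Rik* (0.19) and *Gpr64* (0.25). These 4 fell by amounts close to that of *Thbd*, with log2 differences from −6.66 to −6.14. For *Gpr126*, *4921521F21Rik* and *Gpr64* every STOSE array lay under the background guide, so the sizes of their falls are approximate. Over 2 lines this measure is set mainly by the size of the difference. Of the relatives of thrombomodulin in the same lectin group, *Cd248* was above the guide in both lines and was not called, with means of 7.52 in M0505 cells and 8.10 in STOSE cells. *Cd93* (3.72 and 3.92) and *Clec14a* (3.15 and 3.42) lay under the guide in both lines, where a fall could not be seen.

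At the start of coagulation the inhibitor moved far more than the initiator. *Tfpi* rose from log2 values of 4.32, 4.67 and 4.45 in M0505 cells to 8.24, 8.19 and 8.20 in STOSE cells. All M0505 arrays lay under the background guide and all STOSE arrays far above it. The difference was 3.73 (standard error 0.09, limma adjusted p = 1.46e-08), a linear fold change of 13.2, which ranked 44 among the 1000 genes called higher. Since the M0505 arrays were all under the guide, the rise is better given as at least 11.2-fold, the value with the M0505 arrays raised to it.

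*F3*, which encodes tissue factor, was clearly expressed in both lines and did not pass the test. The M0505 arrays read 8.70, 8.73 and 8.67, and the STOSE arrays 8.78, 8.02 and 7.98. STOSE replicate 1 was above every M0505 array, whereas the other two STOSE arrays were below all of them. The difference was −0.44 (95% interval −0.88 to −0.004, limma adjusted p = 0.0794). STOSE replicate 1 decides this value: without it the difference was −0.70 (limma adjusted p = 5.19e-05), which is still under 2-fold.

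*Plau*, the gene of the urokinase-type activator, fell to the level of the guide. Its log2 values were 6.69, 6.48 and 6.48 in M0505 cells and 4.58, 4.19 and 4.21 in STOSE cells. All STOSE arrays lay under the guide. The difference was −2.22 (standard error 0.11, limma adjusted p = 1.05e-06), a linear fold change of −4.67 that ranked 400 among the genes called lower. Against the guide the fall was at least 3.55-fold.

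The receptor and the tissue-type activator differed by less. *Plaur*, the gene of the urokinase receptor, had values of 10.33, 10.17 and 10.14 in M0505 cells and 9.69, 9.60 and 9.47 in STOSE cells. These did not overlap, and the difference of −0.63 (standard error 0.08, limma adjusted p = 0.000195) was a linear fold change of −1.55. *Plat* had values of 8.44, 8.47 and 8.47 against 7.79, 7.98 and 7.83. Again every STOSE array was below every M0505 array, by −0.60 (standard error 0.07, limma adjusted p = 9.76e-05), a linear fold change of −1.51. Centring of the arrays brought the 2 differences to −0.43 and −0.40, and a further quantile normalization brought them to −0.63 and −0.51.

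*Anxa2* encodes annexin A2, a membrane protein that binds plasminogen and its tissue-type activator together with S100A10. It was higher in STOSE cells, at 11.33, 11.34 and 11.36 against 10.69, 10.75 and 10.75. The arrays of each line lay within a narrow band and the bands were apart. The difference was 0.61 (standard error 0.05, limma adjusted p = 2.30e-05), a linear fold change of 1.53 and so under the 2-fold threshold. It was the only 1 of the plasminogen genes chosen by name that was higher in STOSE cells.

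Of the protease-activated receptors, *F2r* encodes PAR1, the main thrombin receptor on most adherent cells, and *F2rl1* encodes PAR2, which is cleaved by trypsin-like proteases other than thrombin. *F2r* was bright in both lines, at 10.76, 10.85 and 10.89 in M0505 cells and 10.70, 10.54 and 10.57 in STOSE cells. The highest STOSE array lay just below the lowest M0505 array. The difference was −0.23 (95% interval −0.39 to −0.08, limma adjusted p = 0.0184), and −0.21 after a further quantile normalization (limma adjusted p = 0.0232). It shrank to −0.03 when the arrays were centred on their medians (limma adjusted p = 0.676). It also missed the adjusted p of 0.05 without M0505 replicate 2 (0.0571), M0505 replicate 3 (0.0668), STOSE replicate 2 (0.0682) or STOSE replicate 3 (0.0584).

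*F2rl1* was under the background guide on every array of both lines. The values were 3.98, 3.99 and 3.99 in M0505 cells and 4.45, 4.32 and 4.35 in STOSE cells. The difference of 0.38 (standard error 0.06, limma adjusted p = 0.000650) therefore lies in a range where no fold change can be given. *F2rl2* (PAR3; 6.95 and 6.87) and *F2rl3* (PAR4; 4.73 and 5.06), the other receptors of this family, did not pass the test, with adjusted p of 0.779 and 0.0727 from limma.

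**Figure D2:**
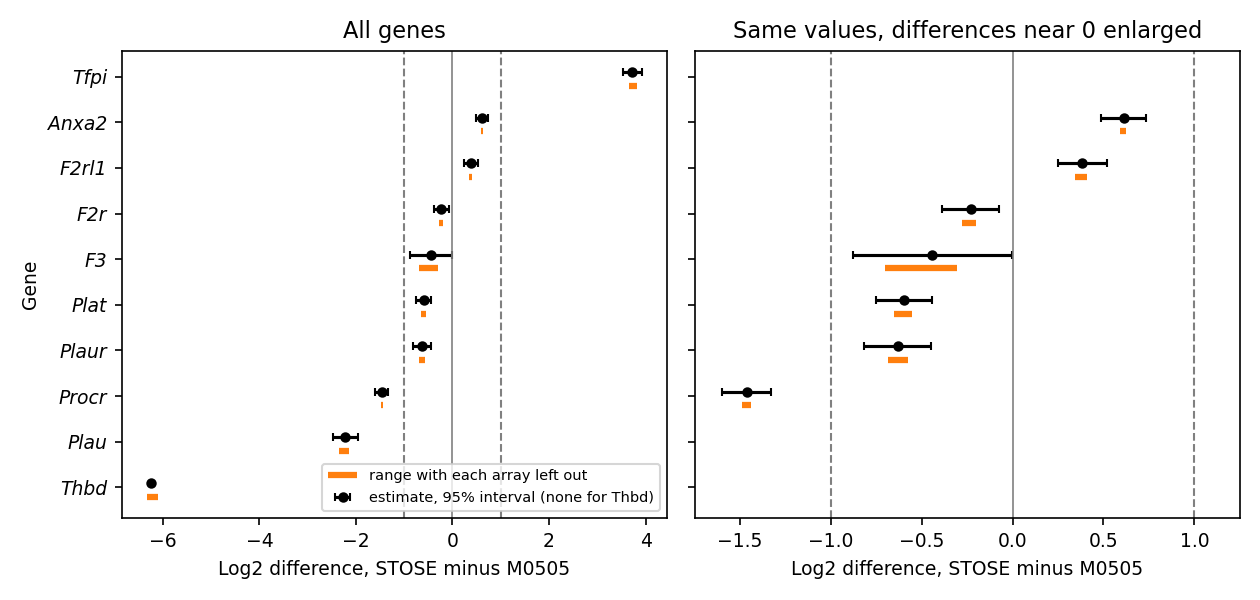
Log2 difference between STOSE and M0505 cells (horizontal axis) for each gene (vertical axis), with the 95% interval of the limma fit in black for the 9 genes other than *Thbd* and, in orange, the range when each array was left out in turn. Dashed lines mark a 2-fold difference, and the right panel enlarges the range near 0. *Thbd*, drawn without an interval because its value is a description, lies past the lines, as do *Plau*, *Procr* and *Tfpi*, and the orange range of *F3* is the widest, from −0.70 to −0.30.

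The wider pathway was read from lists of 72 further genes, of which 71 were on the array. Of these, 3 were called higher and 7 lower in STOSE cells, or 14.1%, close to the 12.5% of all genes. Their median log2 difference was 0.14. For 21 of the 71, both lines were under the background guide.

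Among 20 coagulation factors and cofactors, *F8* was called, and it was lower, at 6.26, 6.09 and 6.14 in M0505 cells and 5.09, 4.76 and 4.65 in STOSE cells. The log2 difference of this cofactor gene of factor IX was −1.33 (standard error 0.11, limma adjusted p = 1.69e-05). The fibrinogen genes *Fga*, *Fgb* and *Fgg* were under the guide in both lines. *Ggcx* and *Vkorc1*, which encode the carboxylase and the reductase of the vitamin K cycle, were lower by log2 differences of −0.69 and −0.72, under 2-fold.

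Among 11 further genes of anticoagulants and related proteins, *Pros1*, which encodes the protein S cofactor of activated protein C, was called higher. Its values were 3.17, 3.15 and 3.36 in M0505 cells and 4.59, 5.14 and 5.07 in STOSE cells, so it moved from under the guide to just around it. The log2 difference was 1.71 (standard error 0.14, limma adjusted p = 1.47e-05), and it was 0.26 (limma adjusted p = 0.177) with values raised to the guide. *Gas6*, listed as a relative of protein S that activates TAM receptors, fell by 1.38 on the log2 scale from a mean of 11.92 (standard error 0.07, limma adjusted p = 9.12e-07). *Hs3st1*, the heparan sulfate sulfotransferase gene that makes antithrombin-binding sites, had a log2 difference of −1.19 (standard error 0.07, limma adjusted p = 1.75e-06), and −0.99, under 2-fold, with centred arrays. *Proc* itself (4.80 and 4.95) lay just above the guide and antithrombin (*Serpinc1*; 4.35 and 4.55) under it in both lines, and neither was called.

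Among 19 genes of plasminogen, its inhibitors and its binding proteins, 1 was called higher and 2 lower. *Serpinb2*, the gene called higher, encodes an inhibitor of the plasminogen activators and had values of 4.98, 4.30 and 4.53 in M0505 cells and 11.38, 11.07 and 10.86 in STOSE cells. *Vldlr*, an endocytic receptor that takes up activator and inhibitor complexes, fell from 6.95, 6.93 and 6.83 in M0505 cells to 4.49, 4.75 and 4.67 in STOSE cells (limma adjusted p = 1.41e-07). Of its STOSE arrays 2 lay under the guide, and against the guide the fall was at least 4.51-fold. *S100a10*, the partner of annexin A2, was higher by a log2 difference of 0.27 (limma adjusted p = 0.00667), under 2-fold, as *Anxa2* was.

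**Figure D3:**
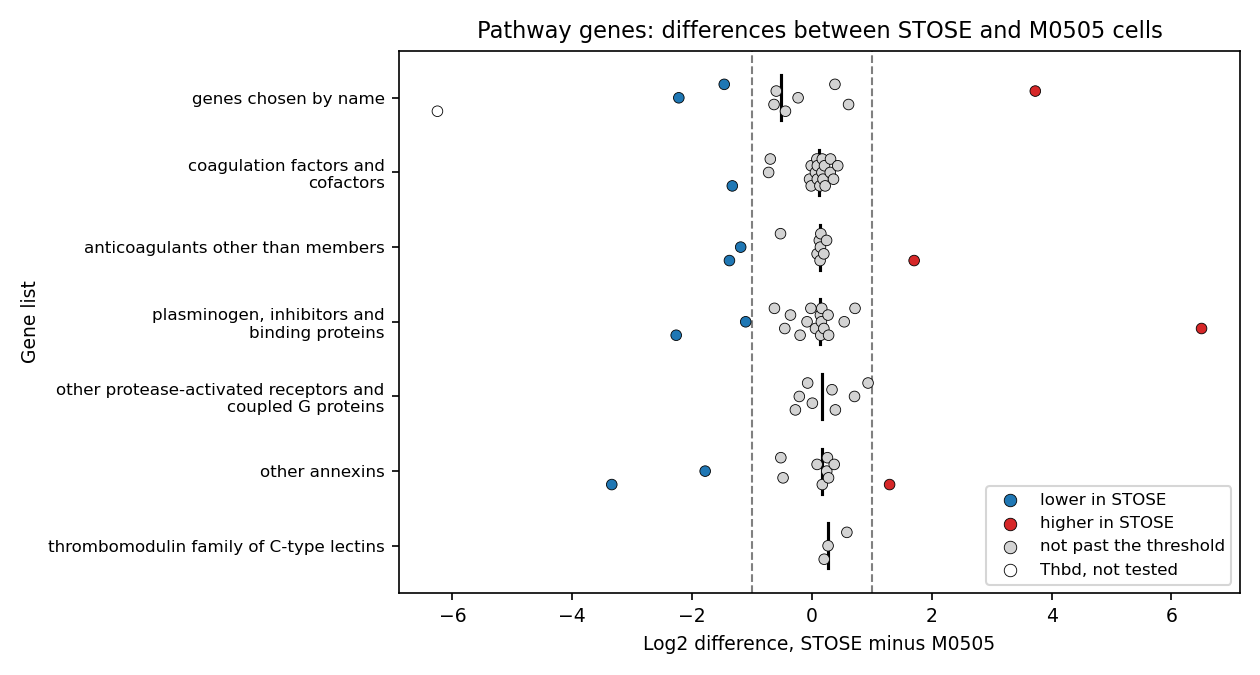
Log2 difference between STOSE and M0505 cells (horizontal axis) of each gene in each list (vertical axis; the vertical scatter within a list has no meaning), blue where called lower, red where called higher, white for *Thbd* (labelled not tested), whose value is given as a description without a p-value, and grey otherwise. The black bar is the median of a list, between 0.11 and 0.27 in the 6 wider lists and −0.52 in the 10 genes chosen by name, and dashed lines mark a 2-fold difference.

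Of 11 other annexins, 2 were called lower and 1 higher. *Anxa9* fell from 9.05, 9.48 and 9.40 in M0505 cells to 5.94, 6.11 and 5.86 in STOSE cells, a log2 difference of −3.34 (standard error 0.12, limma adjusted p = 1.54e-07). *Anxa6* was lower by −1.78 with its brightest probe set (standard error 0.06, limma adjusted p = 1.15e-07) and by −0.93, under 2-fold, with the mean of its probe sets. *Anxa8* was higher by 1.30 (standard error 0.13, limma adjusted p = 4.13e-05). Of the 8 other receptors and signalling partners of the protease-activated receptor list, none was called. *Arrb2*, an arrestin gene, came nearest at 0.94 and passed 2-fold with centred arrays (1.14) and after a further quantile normalization (1.02).

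Gene order was read from the RefSeq genes of GRCm38.p6, which placed 97.4% of the genes on the array. *Thbd*, *Procr* and *Tfpi* lie on chromosome 2, and *F2r* and *F2rl1* are next to each other on chromosome 13. Of the 90 distinct neighbours, 5 on each side of every gene, 4 were called higher and 6 lower. Over all genes the shares were 4.90% and 7.59%. None of the 10 neighbours of *Thbd* was called, and the adjoining *Cd93* read 3.72 and 3.92. *Tfpi* adjoins *Calcrl*, the gene of the calcitonin receptor-like receptor, which rose from 3.71 ± 0.12 (SD, n = 3) to 8.76 ± 0.04 (SD, n = 3), with a limma adjusted p of 2.06e-09. All its M0505 arrays were under the guide, and against the guide the rise was at least 16.4-fold. *Selenoh*, 2 places from *Tfpi* on the other side, was higher by a log2 difference of 1.17 (limma adjusted p = 5.97e-07), and *Fam171b*, 3 places away, fell by 2.02 on the log2 scale. *Plaur* adjoins *Cadm4* (−3.46), and *Kcnn4*, 3 places away on the other side, was called higher (4.07). *Procr* adjoins *Edem2* (−1.0001, at the threshold), and *F3*, *F2r* and *F2rl1* had no called neighbour.

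**Figure D4:**
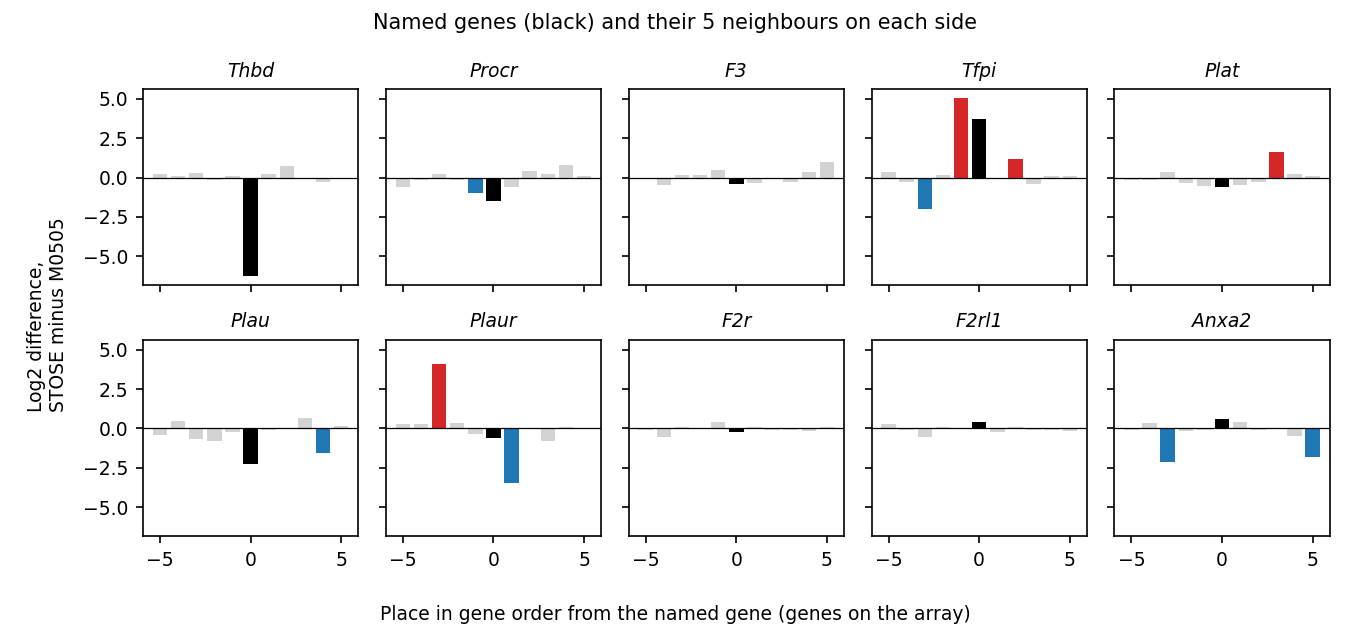
Log2 difference between STOSE and M0505 cells (vertical axis) for each of the 10 genes (black) and the 5 genes on each side in gene order (horizontal axis, places from the gene named above the panel), red where called higher, blue where called lower and grey otherwise. The black bar of *Thbd* stands among neighbours that were not called, of which *Nxt1* differed most (0.71). That of *Tfpi* stands beside the rise of *Calcrl*.

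RefSeq promoters of GRCm38.p6, from 250 bases before to 50 after a start, were at hand for 6 of the 10 genes (*Procr*, *F3*, *Tfpi*, *Plaur*, *F2r* and *Anxa2*), in 7 promoters. The letters TGANTCA, which AP-1 factors bind and which read alike on both strands, were found before the start of 5 of the 6 genes, *Tfpi* being the exception. Of all 27025 genes with a promoter, 8.97% held them. The motif was chosen after these promoters had been seen, and a match is no proof of a bound site. The match began 154 bases before the start in *Procr*, 146 and 135 in *F3*, 69 in *Plaur*, 95 in *Anxa2* and 204 in *F2r*. The stretches lie at chr2:155751038-155751094, chr3:121723366-121723433, chr7:24462389-24462445 and chr9:69453563-69453619 on the plus strand and, for *F2r*, at chr13:95618639-95618695 on the minus strand. Of these 5 genes only *Procr* was called, and it was lower in STOSE cells. *Plaur* (lower) and *Anxa2* (higher) differed by less than 2-fold, and *F3* and *F2r* had smaller or unsettled differences. The stretches are shown, with the match in capitals, because the same letters recur upstream of genes with such unlike differences:
Procr: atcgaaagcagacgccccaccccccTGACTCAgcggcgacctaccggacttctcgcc
F3: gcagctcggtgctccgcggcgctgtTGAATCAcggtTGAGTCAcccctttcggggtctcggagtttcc
Plaur: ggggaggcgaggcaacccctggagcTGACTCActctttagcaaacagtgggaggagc
Anxa2: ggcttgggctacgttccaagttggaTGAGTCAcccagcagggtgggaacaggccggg
F2r: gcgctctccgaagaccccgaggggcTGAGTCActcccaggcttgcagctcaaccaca
The GC box GGGCGG, on either strand, was found in 5 of the 6 genes against 38.2% of all, the letters CCACCC in 4 against 34.0%, and TATAAA in 3 against 15.7%.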

How the data were processed

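RNA of M0505 and STOSE cells (3 arrays each) was read on whole-transcript mouse expression arrays of Affymetrix (Mouse Gene 1.0 ST). The authors deposited log2 values, which they had background corrected, quantile normalized and summarized per probe set by RMA (Affymetrix Expression Console per the submitters' processing notes; version and genome build are not given in the sources used here). The table also holds line means, which equalled those recomputed, and the authors' ratios and fold changes, which were not used.

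Of 28944 probe sets, 23530 had a symbol. The brightest probe set per gene was kept. STOSE and M0505 arrays were compared with limma 3.58.1 (lmFit, eBayes) in R 4.3.3. The code was tested on simulated data. With 3 against 3, an exact two-sided permutation p cannot be below 0.1, so none is given. The number of arrays limits the precision, and the background guide is only approximate. The genes, lists and tests were chosen with earlier results of these data known. Older symbols in the lists were matched through RefSeq synonyms. Named singly are the 10 genes, list members past the threshold and the 5 genes nearest *Thbd*, of which some are not reported here; others were named after their values were seen. Normalization, filters on dim genes, probe set rule, test, threshold, background level, replicate block and leaving out arrays were varied.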

Additional observations from a re-analysis of the deposited data

How the results depend on the processing

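With each array left out in turn, the log2 difference ranged from −6.34 to −6.10 for *Thbd*, −1.49 to −1.44 for *Procr*, −2.35 to −2.15 for *Plau* and 3.65 to 3.82 for *Tfpi*. The calls of *Procr*, *Plau* and *Tfpi* held under the further quantile normalization, centring, limma with trend, the methods' t-test (unadjusted or adjusted), the background level and every array left out. At 4-fold *Procr* (−1.46) was no longer called. With the adjusted p alone, *Plat* (−0.60), *Plaur* (−0.63), *F2r* (−0.23), *F2rl1* (0.38) and *Anxa2* (0.61) were added, which gave 3 higher and 6 lower with *Thbd*, a description, counted here and below. At 1.5-fold *Plat*, *Plaur* and *Anxa2* were added, which gave 2 higher and 5 lower. Without the dimmest 50% of genes, *Tfpi*, *Plau* and *F2rl1* were not tested, and 0 were called higher. *F2rl1* has no value with the background level, since all its arrays lie under it. Of the 71 wider pathway genes, 25 were higher and 18 lower at the adjusted p alone, 6 were higher and 10 lower at 1.5-fold, and 1 was higher and 2 lower at 4-fold. Over all genes the counts were 6454 and 5066, 2245 and 2871, and 186 and 509 under the same 3 thresholds. The replicate numbers were tried as a block: deviations of same-numbered arrays correlated at 0.26, 0.04 and 0.25 across genes, and 5 of 6 arrays lay nearest their own number. The labels do not say that same-numbered arrays belong together, so the numbers were not taken as pairs in the main fit. With the replicate block 1 gene of the 10 was higher and 3 lower, and over all genes 1001 were higher and 1548 lower. For *F3* the limma adjusted p was 0.0525 with the block and 0.0794 without it.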

Other observations

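STOSE replicate 1 exceeded the next STOSE array by 0.76 on the log2 scale for *F3*, a gap reached in that direction by 46 of the 20405 genes (0.225%), *F3* included. The root mean square deviation of this array from the mean of its line, over all genes, was 0.12, as for M0505 replicate 1, and the other 4 arrays lay between 0.08 and 0.10.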
